A study of Mus musculus with 12 samples.

Results

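Small nucleolar RNAs (snoRNAs) were followed across 12 mouse livers, each measured as total RNA on 1 Affymetrix Gene Level 1.0 ST array. The members were all transcript clusters, the probe groups of this array, whose single gene symbol in the platform annotation begins with Snora or Snord and a number. This gave 56 clusters of 51 symbols, 23 of them box H/ACA (Snora) and 33 box C/D (Snord), of 21789 clusters with 1 symbol and 35557 in all. Another 41 clusters list a snoRNA among several symbols. They were read as a set and no gene was named from them.

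The study crossed a liver NCoR mutation with thyroid state. Control mice were euthyroid (replicates 13, 14, 15) or hypothyroid (17, 18, 20), and so were L-NCoR∆ID mutants (euthyroid 2, 3, 4 and hypothyroid 5, 6, 7), with 3 mice in each of the 4 groups. L-NCoR∆ID mice carry a mutation of the corepressor NCoR in the liver. What drives the mutation, the strain, age and sex of the mice, and how hypothyroidism was induced have no entry in the sources used here. No cluster carries the symbol Ncor1 alone, so the altered gene was not checked here. The labels do not say that the mice were raised or killed apart, so p-values measure the spread between these samples.

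SnoRNAs are short RNAs of the nucleolus that pair with ribosomal RNA. Box H/ACA RNAs work with dyskerin and guide the conversion of uridine to pseudouridine, while box C/D RNAs work with fibrillarin and guide methylation of the ribose. A few, such as U17 (Snora73a and Snora73b), U22 (Snord22) and U8 (Snord118), serve in the cutting of the ribosomal RNA precursor instead. In mammals most snoRNAs lie in introns of other genes, often genes of ribosomal proteins and translation factors, and are trimmed out of the spliced intron. Thyroid hormone receptors recruit NCoR to hold target genes down when the hormone is absent.

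The deposited values are log2 signals, so a difference of 1 is a 2-fold change, and the level of 1 cluster cannot be set against that of another. The signal of the snoRNA clusters covered most of the array's range. Of the 56, 38 had a mean above the median cluster mean of 4.21, and these were 19 Snora and 19 Snord clusters. Snord104 was the Snord with the highest mean signal (11.49) and Snora44 the Snora with the highest (9.14). Snord58b lay near the bottom, at 1.56 to 2.23 on every array in its second cluster. For 5 symbols there was a pair of clusters each, and those of Snora30 and of Snord118 held identical values on every array, so each pair is 1 measurement counted as 2 clusters. The pairs of Snora3 and Snord58b differed by at most 0.15 and 0.16 on any array, and that of Snora21 by at most 0.37. The hepatocyte markers Alb, Apoa1, Ttr and others were high on every array (list mean 12.08 to 12.33).

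SnoRNA clusters varied more between mice of a group than most clusters did. Their pooled within-group SD had a median of 0.382, against 0.193 over all 21789 clusters and 0.196 over 296 microRNA clusters, which had low signal. Among clusters above the median level it was 0.393 for snoRNAs and 0.203 for all. Of the 56 clusters, 34 (60.7%) lay above the 90th percentile of all clusters (0.308). The widest Snora was Snora23 (SD 0.712), and the widest Snord clusters were both those of Snord118 (0.781) and Snord73b (0.82).

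Much of this spread was shared within single arrays. Mutant euthyroid replicate 4 lay below its group mean in 51 of 56 clusters (median deviation -0.31) and was the lowest of its group for 44. Mutant hypothyroid replicate 5 lay below its group mean in 49 clusters (median deviation -0.32) and was the lowest of its group for 40. On the other side, mutant hypothyroid replicate 6 was below in 7 (median deviation 0.27) and mutant euthyroid replicate 2 in 9 (0.15). The control arrays were below in 20 to 36 clusters. Over all clusters with 1 symbol, each array lay below its group mean in 46.9% to 52.8% of them. Small RNAs under other symbols, such as Rmrp, Rpph1, Rn7sk and the Y RNAs, made up 17 clusters. The U3 snoRNA (Rnu3a) and small Cajal body RNAs (Scarna) were among them, so the set is not free of snoRNAs. These 17 clusters had median deviations of -0.16 on mutant euthyroid replicate 4, -0.10 on mutant hypothyroid replicate 5 and 0.12 on replicate 6. In euthyroid controls they went the other way from the 56 clusters, with 0.18 on replicate 14 (the 56 at -0.08) and -0.12 on replicate 13 (the 56 at 0.09). The medians of the microRNA clusters stayed between -0.05 and 0.03 on all 12 arrays. Their signal was low, with array medians from 2.70 to 2.88 against a median cluster mean of 4.21. Clusters at so low a signal can show little of an array shift, so they do not tell whether microRNAs shared it. The part of RNA recovery or labelling in these array shifts was not tested.

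**Figure D1:**
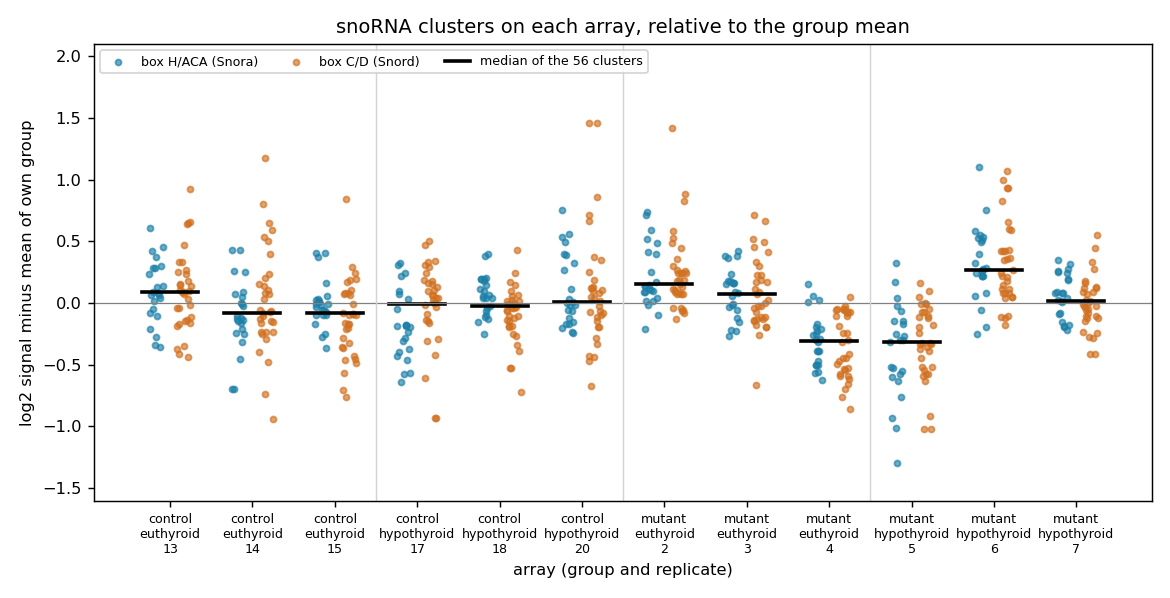
Each point is 1 snoRNA cluster on 1 array, plotted as its log2 signal minus the mean of its own group, with box H/ACA clusters in blue, box C/D clusters in orange and the median of all 56 as a black bar. Mutant euthyroid replicate 4 and mutant hypothyroid replicate 5 have medians of -0.31 and -0.32, and mutant hypothyroid replicate 6 has 0.27.

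Mutants were compared with controls averaged over both thyroid states to ask how the NCoR mutation moved snoRNA signal. A cluster was called when its adjusted p (limma, Benjamini-Hochberg over all 21789 clusters) was under 0.05. Both calls among the 56 were lower in mutants, Snord104 and Snora74a, and none was higher. In all clusters 1.14% were called in either direction and 0.234% as lower. At an unadjusted p under 0.05, 15 snoRNA clusters were lower and 1 higher, against 6.86% and 9.8% of all clusters.

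Snord104, a box C/D RNA, had signals of 11.59, 12.56 and 11.93 in euthyroid controls, 12.18, 12.03 and 11.45 in hypothyroid controls, 11.19, 11.27 and 10.79 in euthyroid mutants, and 10.59, 11.40 and 10.95 in hypothyroid mutants. All 6 mutants lay below all 6 controls, though hypothyroid control replicate 20 and hypothyroid mutant replicate 6 were nearly level. The mean went from 12.03 (SD 0.493, n = 3) to 11.08 (SD 0.261) in euthyroid mice and from 11.88 (SD 0.384) to 10.98 (SD 0.407) in hypothyroid mice. Snord104 fell 1.90-fold (log2 difference -0.93 ± 0.183 SE, adjusted p = 0.0239).

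Snora74a, a box H/ACA RNA also known as U19, had signals of 7.36, 8.15 and 7.64 in euthyroid controls, 7.69, 8.47 and 8.09 in hypothyroid controls, 6.58, 7.21 and 6.58 in euthyroid mutants, and 5.82, 7.33 and 7.09 in hypothyroid mutants. Again no mutant reached a control, and the lowest value was that of mutant hypothyroid replicate 5. Snora74a fell 2.19-fold (-1.13 ± 0.235 SE, adjusted p = 0.0312).

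Both calls depended on single arrays. Snord104 lost its call without control hypothyroid replicates 17 (adjusted p = 0.0841) or 18 (0.0721), mutant euthyroid replicate 4 (0.0722), or mutant hypothyroid replicates 5 (0.0612) or 7 (0.0567). Snora74a lost it without control euthyroid replicates 14 (0.0712) or 15 (0.0657), control hypothyroid replicates 18 (0.0875) or 20 (0.0603), or mutant euthyroid replicates 2 (0.0796) or 4 (0.0899). Without both arrays of lowest snoRNA signal, mutant euthyroid 4 and mutant hypothyroid 5, the differences were -0.75 (adjusted p = 0.14) for Snord104 and -0.85 (0.0892) for Snora74a. Without control euthyroid replicate 14 and mutant hypothyroid replicate 7, the ends of the first principal component, the adjusted p was 0.0846 and 0.0764, and with all 35557 clusters tested it was 0.11 and 0.129. When array SD (the spread of all log2 values on an array) was a covariate, the differences were -0.82 (adjusted p = 0.314) for Snord104 and -1.24 (0.194) for Snora74a. In that fit 2 other clusters were called, the identical pair of Snora30 (-0.91, adjusted p = 0.0205), against 0.188% of all clusters. In hypothyroid mice array SD was higher in mutants (2.316 to 2.35) than in controls (2.288 to 2.296) without overlap. Array SD and the mutation therefore cannot be fully told apart there. Without control euthyroid replicate 13, 8 snoRNA clusters were called, 7 lower and Snord53 higher (0.38), while the share of all clusters called went from 1.14% to 8.56%. Without mutant hypothyroid replicate 6 there were 4, all lower, against 0.661% of all clusters. The count was 0 without control hypothyroid replicate 18 (0.638% of all clusters) or mutant euthyroid replicate 4 (0.665%). It was 1 without control euthyroid 14 or 15, control hypothyroid 17 or 20, or mutant hypothyroid 5 or 7, where 0.491% to 0.982% of all clusters were called.

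Other box C/D RNAs of high signal gave lower values in mutants without being called. Snord15b, made from an intron of Rps3, measured 9.65, 10.82 and 9.60 in euthyroid controls, 9.64, 9.95 and 9.76 in hypothyroid controls, 9.46, 9.42 and 8.70 in euthyroid mutants, and 8.23, 9.40 and 8.78 in hypothyroid mutants. Its groups did not overlap either (-0.91 ± 0.228 SE, adjusted p = 0.0734). Snord104, Snora74a and Snord15b were the 3 clusters in which every mutant lay below every control (5.36%, against 0.404% of all clusters), and 0 snoRNA clusters showed the reverse (0.643% of all clusters). Snord16a, singled out after its values were seen because its difference was the widest, had -1.16 ± 0.309 SE (adjusted p = 0.0874). Its values ran from 6.92 to 8.22 in controls and from 5.31 to 7.33 in mutants, so its groups overlapped. The pair of U17 genes, Snora73a (-0.65) and Snora73b (-0.56), had adjusted p of 0.119 and 0.158. On the higher side Snord73b (0.50 ± 0.356 SE, adjusted p = 0.497) had the largest difference.

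Counted by class, 20 of 23 Snora and 22 of 33 Snord clusters lay below 0 in this average, against 53.6% of all clusters. The median difference was -0.21 for Snora, -0.18 for Snord and -0.01 for all clusters. The lower values spanned both classes, and the widest differences were those of bright clusters. Both arrays of lowest snoRNA signal, mutant euthyroid replicate 4 (median deviation -0.31) and mutant hypothyroid replicate 5 (-0.32), are mutants and enter these values. The class counts and medians of this average were not repeated without them, so their part in the lower values is not known. Members share arrays and partly share host transcripts, so these counts are a description and carry no p. In bulk liver RNA, fewer cells of a type and less RNA per cell cannot be told apart.

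**Figure D2:**
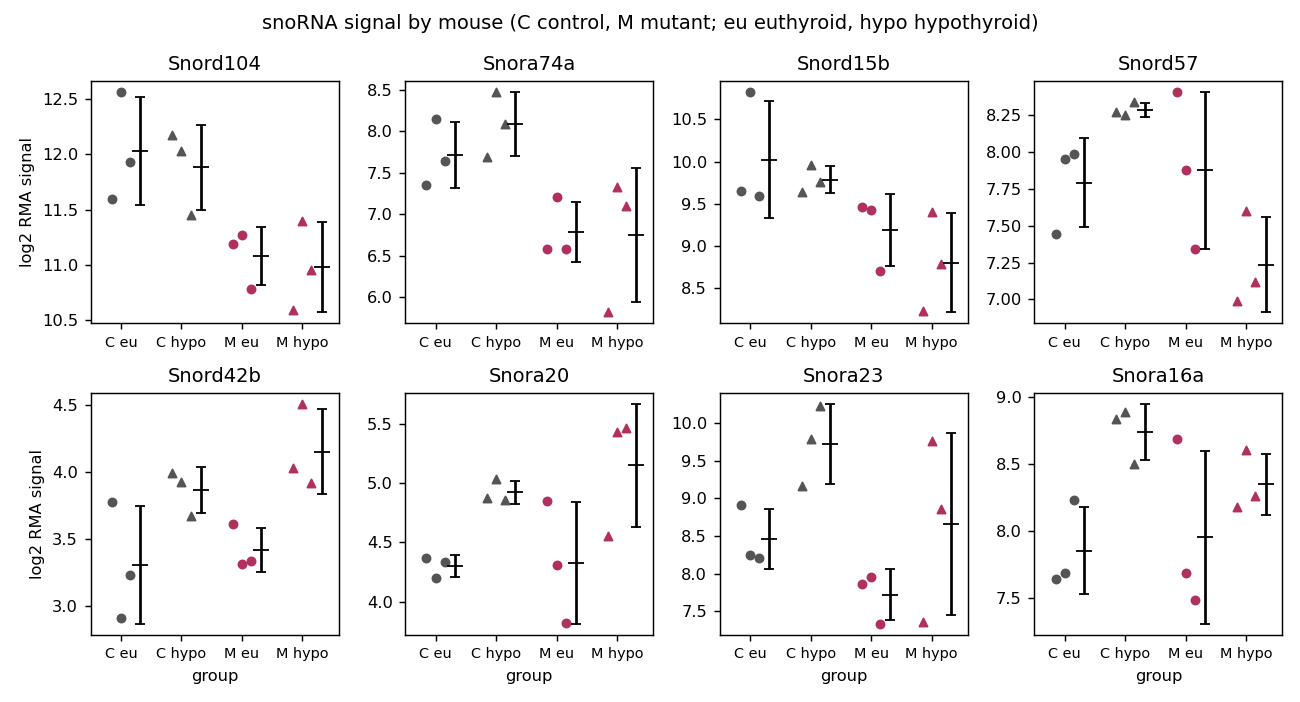
Log2 signal of 8 snoRNA clusters in each mouse (circles euthyroid, triangles hypothyroid, grey control, red mutant), with the mean and SD of each group of 3 beside the points. For Snord104, Snora74a and Snord15b every mutant lies below every control, while Snora23 spreads from 7.36 to 9.76 in hypothyroid mutants.

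Within each thyroid state the comparison rested on 3 mice against 3. In euthyroid mice 0 of 56 clusters were called by limma, with 0.129% of all clusters called, and 7 had an unadjusted p under 0.05, 6 lower and 1 higher, against 3.28% and 4.85% of all. Every mutant lay below every control in 8 clusters and above in 1, against 5.35% and 5.05% of all clusters. Differences were below 0 in 19 of 23 Snora and 18 of 33 Snord clusters, against 50% of all. Snord104 (-0.95 ± 0.259 SE, adjusted p = 0.298), Snord8 (-0.50) and Snora74a (-0.92) had the largest negative t. Snord53 (0.39), Snord73a (0.32) and Snord42a (0.42) had the largest positive t. The Snora median was -0.16 and lay between -0.25 and -0.04 when each array was left out in turn, with -0.25 without mutant euthyroid replicate 2 and -0.04 without control euthyroid replicate 13. The Snord median was -0.06, and it was 0.08 without mutant euthyroid replicate 4, so it had no settled sign.

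In hypothyroid mice again 0 of 56 clusters were called by limma (0.262% of all clusters), while 16 were lower in mutants (11 Snora, 5 Snord) and 2 higher at an unadjusted p under 0.05, against 4.4% and 6.01% of all. The groups did not overlap in 11 clusters with lower and 2 with higher mutants, against 10.2% and 12.4% of all clusters. The 2 were Snord96a and Snord53, at 0.35 each, and Snord95 (0.35) followed by t. The Snora median was -0.39, between -0.47 and -0.29 when each array was left out, and 19 of 23 Snora clusters lay below 0, against 53.8% of all clusters. For Snord the median was -0.15, and 23 of 33 lay below 0. The array medians of the Snora clusters averaged 5.95 (SD 0.25, n = 3) in hypothyroid controls and 5.44 (SD 0.0282) in hypothyroid mutants.

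Snord57, which lies within the gene of the box C/D core protein Nop56, came closest to a call in hypothyroid mice. It measured 8.27, 8.25 and 8.34 in hypothyroid controls and 6.99, 7.60 and 7.12 in hypothyroid mutants, with no overlap (-1.05 ± 0.232 SE, adjusted p = 0.093). Next by t were Snora74a (-1.34) and Snord104 (-0.90). Snord57 passed when the groups compared were fitted alone (adjusted p = 0.0194) or without control euthyroid replicate 13 (0.0438). In euthyroid mice the controls had 7.44, 7.95 and 7.98 and the mutants 8.40, 7.88 and 7.34, which overlapped (0.08). The difference of the mutant effect between thyroid states was -1.13 ± 0.329 SE for Snord57, with an adjusted p above 0.99. For that difference 0 of 56 snoRNA clusters and 0% of all clusters were called by limma, and 2 snoRNA clusters, Snord57 and Snord96a (0.51), had an unadjusted p under 0.05, against 2.75% of all clusters.

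The hypothyroid controls enter both the comparison with hypothyroid mutants and the one with euthyroid controls, so the results of the pair are not independent. The mutant effects in euthyroid and in hypothyroid mice share no array. Of the 23 Snora clusters, 17 were lower in mutants in both states (35.1% of all clusters), and of the 33 Snord clusters 14 were.

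Hypothyroid mice were compared with euthyroid mice to ask how loss of thyroid hormone moved snoRNA signal. Averaged over genotypes, 3 of 56 clusters were called, all higher in hypothyroid mice, against 6.04% of all clusters in either direction and 4.18% as higher. The 3 members called are a share (5.36%) near that of all clusters. At an unadjusted p under 0.05, 11 were higher and 2 lower, against 14.1% and 10.6% of all clusters. In 0 clusters did all hypothyroid mice lie above or below all euthyroid mice, against 2.62% and 1.13% of all clusters. The called snoRNAs were Snord42b, Snora20 and Snora23.

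Snord42b, a box C/D RNA from the ribosomal protein gene Rpl23a, had low signals of 3.78, 2.91 and 3.23 in euthyroid controls, 4.0, 3.93 and 3.67 in hypothyroid controls, 3.61, 3.31 and 3.34 in euthyroid mutants, and 4.03, 4.51 and 3.92 in hypothyroid mutants. Euthyroid control replicate 13 was the 1 euthyroid mouse within the range of the hypothyroid mice. Snord42b rose 1.56-fold (0.65 ± 0.146 SE, adjusted p = 0.018). Its mean over all arrays, 3.69, lay below the median cluster, so it was left out where dim clusters were dropped.

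Snora20, a box H/ACA RNA from Tcp1, had signals of 4.37, 4.20 and 4.34 in euthyroid controls, 4.87, 5.04 and 4.85 in hypothyroid controls, 4.84, 4.31 and 3.82 in euthyroid mutants, and 4.55, 5.43 and 5.47 in hypothyroid mutants. The control groups did not overlap and the mutant groups did. Snora20 rose 1.65-fold (0.72 ± 0.174 SE, adjusted p = 0.0258).

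Snora23, a box H/ACA RNA from the importin gene Ipo7, had signals of 8.91, 8.25 and 8.21 in euthyroid controls, 9.16, 9.79 and 10.22 in hypothyroid controls, 7.87, 7.96 and 7.34 in euthyroid mutants, and 7.36, 9.76 and 8.85 in hypothyroid mutants. Mutant hypothyroid replicate 5 sat with the euthyroid mutants, apart from the other two. Snora23 rose 2.15-fold (1.10 ± 0.311 SE, adjusted p = 0.0497), at the edge of the threshold.

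These calls also moved with single arrays. Snord42b lost its call without control hypothyroid replicate 17 (adjusted p = 0.0532) or mutant euthyroid replicate 4 (0.0504). Snora20 lost it without control hypothyroid replicates 17 (0.0551), 18 (0.0626) or 20 (0.0502), mutant euthyroid replicate 4 (0.0644), or mutant hypothyroid replicates 6 (0.063) or 7 (0.0748). Snora23 kept its call when control euthyroid replicate 13 (0.0214) or mutant hypothyroid replicate 5 (0.00229) was left out. Leaving out any other single array ended it, with adjusted p from 0.0536 to 0.118. When array SD was a covariate, the differences shrank to 0.34 (adjusted p = 0.641), 0.36 (0.696) and 0.35 (0.863). With all 35557 clusters tested the adjusted p was 0.0568, 0.0736 and 0.119. Without both arrays at the ends of the first component it was 0.118 for Snora20 and 0.186 for Snora23, without both arrays of lowest snoRNA signal 0.0714 for Snord42b, and after quantile normalization 0.083 for Snora23. Array SD was itself higher in hypothyroid than in euthyroid controls without overlap (2.288 to 2.296 against 2.219 to 2.285), and likewise in mutants (2.316 to 2.35 against 2.259 to 2.307). Without control euthyroid replicate 13, 8 snoRNA clusters were called, all higher, while the share of all clusters called went from 6.04% to 16.4%. Without mutant hypothyroid replicate 5 there were 6, all higher, against 4.97% of all clusters. The count was 1 without control hypothyroid replicates 18 or 20 or mutant hypothyroid replicate 7 (3.12% to 3.72% of all clusters). It was 0 without control hypothyroid replicate 17 (3.28%) or mutant euthyroid replicate 4 (3.26%).

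Box H/ACA and box C/D clusters differed in how they were placed by thyroid state. In the average 21 of 23 Snora and 16 of 33 Snord clusters lay above 0, against 46.1% of all clusters, with medians of 0.23 and 0.00. In controls alone 22 of 23 Snora clusters were higher in hypothyroid mice, against 18 of 33 Snord and 48.7% of all clusters. The Snora median there was 0.40, between 0.37 and 0.56 when each array was left out and 0.22 once array SD entered as a covariate. The Snord median was 0.06, and it was -0.05 without control hypothyroid replicate 20. The classes also differed in signal level, as 19 of 23 Snora and 19 of 33 Snord clusters lay above the median cluster mean. Among all clusters above that level the median difference in the average was 0.07, against -0.02 over all clusters. The part of signal level in the placing of the classes was not tested. The difference between the classes was not tested, since clusters of a class are not replicates.

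In controls 0 of 56 clusters were called by limma (1.11% of all clusters), and 12 had an unadjusted p under 0.05, all higher and 0 lower, against 8.01% and 5.02% of all clusters. The groups did not overlap in 10 clusters, all higher and 0 lower in hypothyroid controls, against 8.78% and 7.88% of all clusters. Snora16a, which shares its host Snhg12 with Snora44, measured 7.64, 7.69 and 8.23 in euthyroid and 8.83, 8.89 and 8.50 in hypothyroid controls. Those groups did not overlap (0.89 ± 0.258 SE, adjusted p = 0.126), and the cluster passed without mutant euthyroid replicate 2 (0.0323). Snora23 (1.26) and Snord42b (0.56) followed by t, and Snord42b passed without control euthyroid replicate 13 (0.79, adjusted p = 0.0338). Snord38a (-0.26), Snord96a (-0.21) and Snord58b (-0.21) had the largest negative t.

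In mutants 0 of 56 clusters were called by limma (1.11% of all clusters), and 10 had an unadjusted p under 0.05 (7 higher, 3 lower), against 8.37% and 7.45% of all clusters. The groups did not overlap in 4 clusters with higher and 2 with lower signal in hypothyroid mutants, against 14.6% and 11.1% of all clusters. Differences were above 0 in 15 of 23 Snora and 20 of 33 Snord clusters, against 47.3% of all. Snord42b (0.73 ± 0.206 SE, adjusted p = 0.122), Snora20 (0.83) and Snora3 (0.49) had the largest positive t. Snord33, one of the snoRNAs in Rpl13a introns that have been tied to the response of cultured cells to excess fatty acid, had 7.79, 7.55 and 6.96 in euthyroid mutants and 6.11, 7.31 and 6.53 in hypothyroid mutants (-0.78 ± 0.255 SE, adjusted p = 0.172). Snord57 (-0.64) and Snord58b (-0.37) followed by t. Snord33 passed without mutant hypothyroid replicate 6 (-1.11, adjusted p = 0.0355). Snord35a, also within Rpl13a, went the other way in mutants (0.32). Snord42b passed without control euthyroid replicates 13 (0.0385) or 14 (0.0454), and Snora20 (1.12, 0.0367) and Snora23 (1.59, 0.0436) without mutant hypothyroid replicate 5. The Snora median was 0.17, from 0.02 without mutant hypothyroid replicate 6 to 0.38 without replicate 5, and 0.00 once array SD entered as a covariate. The Snord median was 0.07, from -0.16 to 0.24 without the same arrays. The 2 thyroid comparisons share no array, and 14 of 23 Snora clusters were higher in both, against 34% of all clusters.

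**Figure D3:**
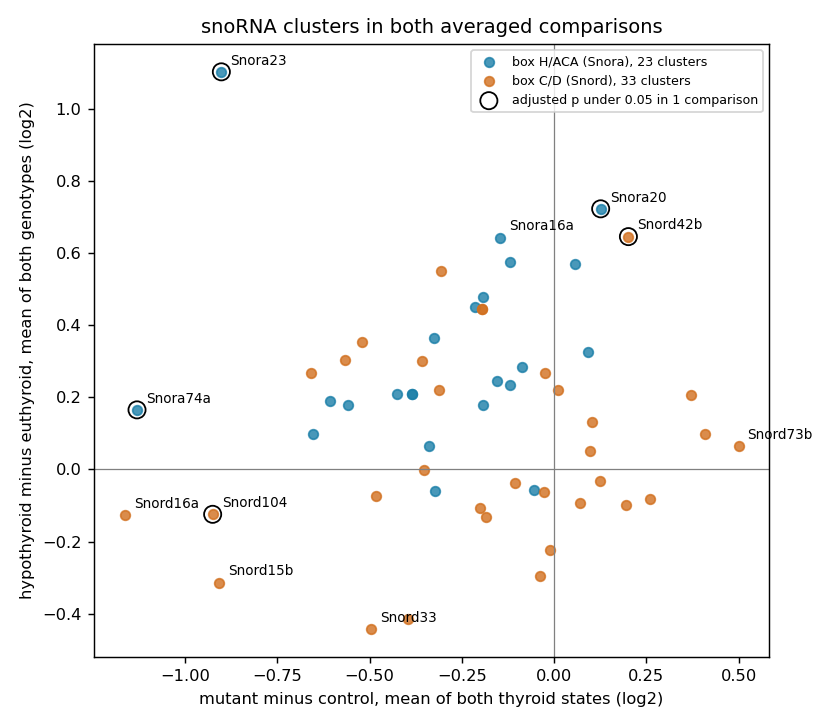
Each point is 1 snoRNA cluster, placed by its averaged mutant minus control log2 difference (horizontal) and its averaged hypothyroid minus euthyroid log2 difference (vertical), with called clusters circled. The box H/ACA clusters lie above 0 on the vertical axis in 21 of 23 cases and the box C/D clusters in 16 of 33. Both axes come from the same 12 arrays.

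SnoRNA genes were then set beside the genes that hold them. All 51 symbols matched the RefSeq gene table of assembly GRCm38.p6 by Entrez identifier, with annotated lengths of 45 to 205 nucleotides. Of these, 50 lay inside the span of at least 1 other gene, and only Snord118 (U8), which is transcribed from its own promoter, did not. The table gives no strand, so a host was taken by span alone. A protein-coding gene held 40 of the symbols, a ribosomal protein gene (Rpl or Rps) 21 and a long noncoding gene alone 10. For 29 snoRNAs a host was measured by a cluster of its own, 25 hosts in all. Where a host had several clusters (10 of the 25), that with the highest mean was used. Ribosomal protein genes have many near-identical copies in the genome, so their values stay uncertain.

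In mutants no host was called beside its snoRNA. Averaged over thyroid states, host differences ran from -0.26 to 0.42 with a median of 0.15. Of 25 hosts 0 were called by limma and 6 had an unadjusted p under 0.05, against 1.14% and 16.7% of all clusters. Snord16a differed by -1.16 while Rpl4 differed by 0.40 (adjusted p = 0.116). Snora23 differed by -0.90 while Ipo7 differed by 0.39 (adjusted p = 0.18). Snord15a and Snord15b, both in Rps3, differed by -0.66 and -0.91 while Rps3 differed by 0.08 (adjusted p = 0.763). Of the 29 pairs 12 had the same sign, and of 4 snoRNAs at or beyond 0.5 in size, 0 had a host that was. The hosts of both called snoRNAs, Gm36220 for Snord104 and Snhg4 for Snora74a, had no cluster with 1 symbol and were not analysed here.

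With hypothyroidism 20 of 29 pairs had the same sign. Host differences had a median of 0.35 averaged over genotypes, and 6 of 25 hosts were called, all higher, against 4.18% of all clusters. Among them were Rpl4 (0.45, adjusted p = 0.0335), Rpl10 (0.42, 0.00957), Rpl23a (0.35, 0.0424) and Eef1b2 (0.45, 0.0433). Of the snoRNAs called, Snord42b (0.65) lies in a called host, Rpl23a. Tcp1 (0.46, adjusted p = 0.0682), the host of Snora20, and Ipo7 (0.38, 0.106), the host of Snora23, were not called. SnoRNAs of a shared host could differ, as did Snord15a (0.27) and Snord15b (-0.31), and Snora75 (0.57) and Snord82 (-0.09) in the nucleolin gene Ncl.

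**Figure D4:**
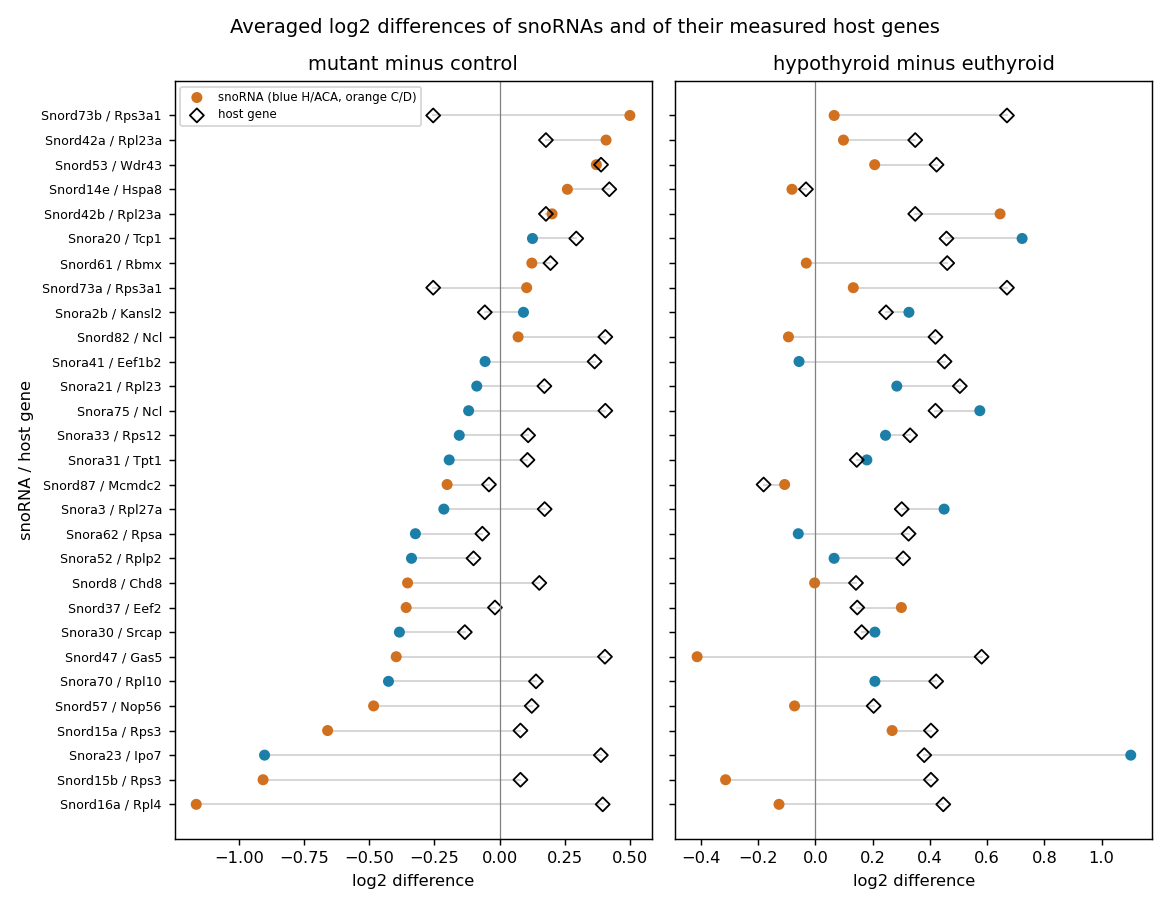
Averaged log2 differences of 29 snoRNAs (filled circles) and of their measured host genes (open diamonds), mutant minus control on the left and hypothyroid minus euthyroid on the right, ordered by the snoRNA's value in the left panel. In mutants the hosts lie between -0.26 and 0.42 while Snord16a, Snord15b and Snora23 lie at -1.16, -0.91 and -0.90.

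Many hosts of snoRNAs belong to a class of genes whose transcripts begin with a run of pyrimidines, the 5′ terminal oligopyrimidine tract, which couples their translation to growth signals. Start sites are shown for 7 hosts, those of the called snoRNAs that the promoter table holds and of 4 others picked after their values were seen, as RefSeq windows of assembly GRCm38.p6 that hold 20 bases before and 10 from the annotated start, on the gene's strand. Capitals mark a run of at least 5 bases, all C or T, that covers the first transcribed base.
Gm36220 (Snord104), chr11:106500895-106500924, plus strand: ggccacacgtccattccggCCTCTTatcga
Ipo7 (Snora23), chr7:110018295-110018324, plus strand: gggccttggcgCTTCTCTTTCCTTTCgcgc
Tcp1 (Snora20), chr17:12916309-12916338, plus strand: gtcccgcagccccctaCTTCCggcgttttc
Snhg12 (Snora16a and Snora44), chr4:132308658-132308687, plus strand: gtgcaggccgttctcagTCCTTTCTCgctt
Rpl4 (Snord16a), chr9:64173367-64173396, plus strand: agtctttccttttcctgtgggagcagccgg
Rps3 (Snord15a and Snord15b), chr7:99483700-99483729, minus strand: gaacacttgcaagggtcgccgcgctgcgcg
Nop56 (Snord57), chr2:130274392-130274421, plus strand: ggagaaggtgtggtctccgcagtctggttc
Such a run covered the start in 11 of the 31 host genes in the promoter table, against 10.1% of 32851 promoters. The run stood at the hosts of Snord104, Snora23 and Snora20, which were called, and of Snora16a, and not at the annotated starts of Rpl4, Rps3 and Nop56. At Tcp1 the start base is the last of the run, so the run lies before the transcript rather than in it. In the Rpl4 window a run of C and T lies before the annotated start and does not cover it. Whether such a run goes with a call was not tested. Rpl23a and Snhg4, the hosts of the called Snord42b and Snora74a, had no window here. Of other hosts of snoRNAs named above, Rack1 (Snord95 and Snord96a) and Rpl27a (Snora3) had such a run, and Snhg3 (Snora73a and Snora73b), Wdr43 (Snord53), Chd8 (Snord8), Rpl13a (Snord33) and Srcap (Snora30) had none. A match describes these letters and no start site was measured here.

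Genes of the snoRNA machinery had median differences above 0 in mutants. Of the 4 box C/D core proteins 0 were called by limma in the mutant average, and 2 had an unadjusted p under 0.05, against 16.7% of all clusters. Nop58 (0.62 ± 0.235 SE, adjusted p = 0.21) and the methyltransferase Fbl (0.24) had the largest t. The median of the 4 was 0.18, against -0.01 for all clusters. Of the 4 box H/ACA core proteins 0 were called by limma (0 at an unadjusted p under 0.05, median 0.21), while with hypothyroidism the pseudouridine synthase Dkc1 rose by 0.56 ± 0.132 SE (adjusted p = 0.0222) and Nop10 had 0.33 (adjusted p = 0.0697). Of 12 measured genes of snoRNP assembly 0 were called by limma in either average. At an unadjusted p under 0.05 there were 2 and 3, against 16.7% and 24.7% of all clusters. Naf1, which brings H/ACA particles together, had 0.50 (adjusted p = 0.0745) in mutants and Rpap3 had 0.38 (adjusted p = 0.0589) with hypothyroidism. Of 16 genes of ribosome biogenesis 15 lay above 0 in mutants (median 0.28) and 12 with hypothyroidism (median 0.13), against 46.4% and 46.1% of all clusters. At an unadjusted p under 0.05 there were 9 and 5, against 16.7% and 24.7% of all clusters. In each average 1 was called, against 0.904% and 4.18% of all clusters called as higher. Myc, the transcription factor that drives ribosome production, rose in mutants (0.65 ± 0.137 SE, adjusted p = 0.0336). The nucleolar protein Npm1 rose with hypothyroidism (0.74 ± 0.167 SE, adjusted p = 0.0183).

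Of 31 measured protein-coding hosts in a wider list 9 rose with hypothyroidism (median 0.30), against 4.18% of all clusters, and 0 were called by limma in the mutant average (5 at an unadjusted p under 0.05, median 0.14). The 9 were Rpl4 (0.45), Rpl5 (0.54), Rpl10 (0.42), Rpl23 (0.50), Rps2 (0.31), Rps13 (0.28), Eef1b2 (0.45), Eif4a2 (0.56) and Dkc1 (0.56), most of them genes of ribosomal proteins or translation factors. Among 5 measured noncoding hosts the mutant average held Rian, a maternally expressed RNA that carries a snoRNA cluster, which fell by 0.49 ± 0.103 SE (adjusted p = 0.0338), and Snhg11, which rose by 0.74 ± 0.164 SE (adjusted p = 0.0402). Snhg11 also rose with hypothyroidism (0.85, adjusted p = 0.00713).

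Small noncoding RNAs under other symbols (spliceosomal, Cajal body, Y and ribonuclease RNAs, the U3 snoRNA Rnu3a and others) mostly lay below 0 in mutants as well. Of 17 such clusters, 2 of which, both named Scarna17, held identical values, 15 were below 0 in the mutant average (median -0.19), against 53.6% of all clusters. Of the 17, 1 was called, against 0.234% of all clusters called as lower. It was the spliceosomal RNA Rnu5g (-0.52 ± 0.117 SE, adjusted p = 0.0439), at a low mean signal of 2.27. Rmrp, a ribonuclease RNA of ribosomal RNA processing, had -0.72 (adjusted p = 0.0734). With hypothyroidism their median was -0.04. For 296 microRNA clusters, of low signal, the medians were -0.07 and -0.05.

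Macrophage markers had signs opposite to the Snora medians (-0.21 in mutants, 0.23 with hypothyroidism), while the Snord medians were -0.18 and -0.003. All 10 Kupffer cell and macrophage markers lay above 0 in the mutant average (median 0.51), against 46.4% of all clusters, with Adgre1 called (0.66, adjusted p = 0.0427). With hypothyroidism all 10 lay below 0 (median -0.65), against 53.9% of all clusters. Clec4f (-0.98, adjusted p = 0.00359), Cd5l (-0.85, 0.0237) and C1qc (-0.85, 0.0296) fell. Their mean level ran from 5.91 to 6.09 in euthyroid controls, 5.42 to 5.59 in hypothyroid controls, 6.28 to 7.26 in euthyroid mutants and 5.47 to 6.31 in hypothyroid mutants. The 6 measured markers of proliferating cells had medians of 0.22 and -0.32 in the same averages, and the 7 of hepatocytes -0.07 and 0.11. Of the hepatocyte markers Ttr, a carrier of thyroid hormone in blood, rose with hypothyroidism (0.32 ± 0.0769 SE, adjusted p = 0.0259). Markers of lymphocytes, endothelium, stellate cells, bile duct cells and erythroid cells had 0 calls by limma in both averages. At an unadjusted p under 0.05 there were 0 in mutants and at most 2 a list with hypothyroidism, against 16.7% and 24.7% of all clusters. The part of cell composition in the snoRNA differences was not tested.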

How the data were processed

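Each of the 12 arrays held liver RNA of 1 mouse, as far as the labels tell. The deposited values are log2 signals that the authors made with RMA, per the submitters' processing notes. For its version, options and feature build there is no entry in the sources used here. RMA sums up the probes of a cluster across arrays, so a value depends on the arrays processed together. Array medians ran from 4.16 to 4.32, so the arrays are close but not identical in distribution.

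Low clusters were kept. For each of the 21789 clusters that carry 1 symbol, limma 3.58.1 (R 4.3.3) estimated the 4 group means from all 12 arrays, and p-values were adjusted within each of 7 comparisons (Benjamini-Hochberg). The fit was tested on simulated data. SE is that of the fit, SD is over the 3 mice of a group, and the number of arrays limits the precision. Alternatives were quantile normalization, median centring, every cluster, clusters above the median level, array SD (of log2 values over all clusters) as a covariate, a variance trend, the groups compared alone and each array left out. Leaving out both arrays at the ends of the first principal component, or both lowest in snoRNA signal, was chosen after seeing the data. Hosts were to be matched by strand too, but the table used gives none.

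The members, gene lists and rules were chosen with earlier results of these data known. Named snoRNAs were those called, the 3 largest and 3 smallest t of each pairwise comparison, the 3 brightest and 3 most variable of each class and symbols with several clusters. For gene lists, called members of both averages were named, and otherwise at most the 2 of largest t. Other names were chosen after their values were seen.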

Additional observations from a re-analysis of the deposited data

How the results depend on the processing

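The called snoRNAs, and those named for the largest t of a pairwise comparison, kept their sign there in every alternative run, while Snord medians and other small differences could change sign. Averaged over thyroid states, mutants had 0 called snoRNA clusters with every cluster tested (0.267% of all clusters called). They had 0 without both arrays at the ends of the first component (0.643%) or both lowest in snoRNA signal (0.509%). With array SD as a covariate 2 were called (0.188% of all clusters), neither of them Snord104 or Snora74a. Leaving out each array gave 0 to 8 (0.491% to 8.56% of all clusters). For hypothyroidism averaged over genotypes the count was 0 with every cluster tested (2.45% of all clusters) and 0 with array SD as a covariate (0.831%). It was 1 without both arrays at the ends of the first component (Snord42b, 3.35% of all clusters). With each array left out it was 0 to 8 (3.12% to 16.4%). In hypothyroid mice the mutant comparison had 2 calls with array SD as a covariate (the Snora30 pair, -1.39, adjusted p = 0.0189), 1 with the groups alone and 0 to 1 with each array left out. Array SD did not overlap between genotypes in these mice, so this covariate and the mutation cannot be fully told apart. The thyroid comparison had 0 to 1 in controls and 0 to 2 in mutants with each array left out. In the main fit 0.262% of all clusters were called in the mutant comparison of hypothyroid mice and 1.11% in each thyroid comparison. Shares under the alternatives were worked out for the averages only, so these pairwise counts have no such share beside them. The Snora median of the mutant effect in hypothyroid mice was -0.58 with array SD as a covariate, the Snora median of the thyroid effect in mutants ran from 0.0215 to 0.377 with each array left out, and the Snord median of the mutant effect in euthyroid mice was -0.34 among clusters above the median level. The cause of these shifts was not tested. Of the alternatives, Snord104 kept its call in 11 of 20 (adjusted p from 0.00421 to 0.314), Snora74a in 10 of 20 (0.00979 to 0.194), Snord42b in 14 of 19 (0.00183 to 0.641), Snora20 in 11 of 20 (0.00466 to 0.696) and Snora23 in 6 of 20 (0.00229 to 0.863). No paired analysis was possible because the groups share no replicate numbers.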

Other observations

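The 41 clusters that list a snoRNA among several symbols had low signal, with array medians from 2.14 to 3.61, and varied between arrays of the same group. In the mutant average 38 lay below 0 (median -0.15), against 53.6% of clusters with 1 symbol. With hypothyroidism 37 lay above 0 (median 0.16), against 46.1% of clusters with 1 symbol. The mutant effect had 36 below 0 in euthyroid mice and 28 above 0 in hypothyroid mice. Control euthyroid replicate 14 stood 0.84 above its group mean at the median, control hypothyroid replicate 17 stood 0.58 above and mutant hypothyroid replicate 6 stood 0.69 above. Mutant hypothyroid replicate 5 lay at -0.58 and control hypothyroid replicate 18 at -0.60. When every cluster of the array was fitted, limma called 0 of the 41 in each of the 7 comparisons, with 0 to 3 at an unadjusted p under 0.05. In that fit 0.267% of all 35557 clusters were called in the mutant average and 2.45% in the hypothyroid average. The share of all clusters at the unadjusted threshold was not worked out there.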
